A study of Mus musculus with 24 samples.

Results

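The genes described here are the matrix metalloproteinases Mmp2, Mmp8, Mmp9, Mmp13, Mmp14, Mmp15 and Mmp19 and the tissue inhibitors of metalloproteinases Timp1, Timp2 and Timp3, taken as the array probes that carry one of these 10 symbols. They make up 10 of the 37325 gene names on the array and 15 of its 56605 probes. In mouse liver RNA, 9 of the 10 genes gave a signal strong enough to test, out of 22088 tested genes. Mmp9 did not.

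Metalloproteinases are zinc enzymes that are made as inactive precursors and cut collagens, gelatin, elastin and other matrix proteins outside the cell. TIMPs bind the active site of these enzymes and block it, and TIMP2 also takes part in the activation of the MMP2 precursor by MMP14 at the cell surface. In injured liver both families are known from stellate cells, macrophages and neutrophils, where they govern how scar matrix is laid down and removed.

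Livers came from 24 female mice of the sv129/C57 strain, 8 weeks old, with 1 array per mouse and 6 mice in each of 4 groups. The groups were LXRalpha beta KO mice given FB1, LXRalpha beta KO mice given water, WT mice given FB1 and WT mice given water, below called KO FB1, KO control, WT FB1 and WT control. FB1 is Fumonisin B1, a mould toxin that blocks ceramide synthases, given at 10 mg/kg body weight per day for 1 month. LXRα and LXRβ are nuclear receptors for oxysterols, and the sources used here state neither which part of each gene was deleted nor in which cells, nor how FB1 was given. The design asks what the toxin changes in each genotype, what loss of the receptors changes with and without the toxin, and whether the response to the toxin depends on genotype.

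The arrays lay on 3 slides with 2 arrays of each group on every slide. Between 58.7% and 64.5% of spots were well above background, and 6 arrays a group set the precision that can be had. Levels below are log2 of the signal relative to the 75th percentile of the same array, so they can be compared between arrays for 1 probe but not between genes. The Nr1h3 probe, for LXRα, lay below -2.5 on all KO arrays (-5.12 to -2.56 with FB1 and -5.13 to -3.98 without), against 4.71 to 4.95 with FB1 and 4.76 to 5.06 without in WT arrays. For Nr1h2, LXRβ, the KO arrays held 0.31 to 0.80 with FB1 and 0.34 to 0.72 without, against 4.02 to 4.22 and 4.07 to 4.34 in WT. The hepatocyte markers Cps1, Arg1 and Tat were well above background on all 24 arrays. In whole liver RNA, fewer cells of a type and less RNA per cell cannot be told apart. Differences after ± carry standard errors from limma, which shares 1 spread per gene over all 24 arrays, and adjusted p values are from limma with Benjamini-Hochberg adjustment over all tested genes, called when under 0.05.

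FB1 in KO livers raised 7 of the 9 tested genes, namely Mmp2, Mmp8, Mmp14, Mmp15, Timp1, Timp2 and Timp3, and limma called 0 lower, also at an unadjusted p under 0.05. Of all tested genes, 41.2% were called in this comparison, 16.5% higher and 24.6% lower. The median log2 difference of the 9 genes was 0.57, against -0.075 over all genes. For Mmp2, Timp1, Timp2 and Timp3 every KO FB1 array lay above every KO control array, a separation that 8.89% of all genes showed in this direction and 9.48% in the other. Mmp13 and Mmp19 did not pass the test. All 7 calls held on leaving out any single array, and all 7 differences had the same sign on each of the 3 slides.

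FB1 in WT livers raised 1 of the 9 genes, Mmp2, and 0 were called lower, where 2.89% of all genes were called, 2.06% higher and 0.824% lower. At an unadjusted p under 0.05 there were 3 higher genes and 0 lower. In 0 of the 9 genes were the groups apart, against 1.29% of all genes apart with FB1 higher and 1.03% with FB1 lower. The median difference of the 9 genes was 0.15, against -0.030 over all genes. The FB1 effect differed between the genotypes for 4 of the 9 genes, Mmp2, Timp1, Timp2 and Timp3, each with a larger rise in KO livers. The difference of effects was called for 9.3% of all genes, 4.46% with the higher value in KO and 4.84% with the lower. Limma called 0 of the 9 genes lower, and 1 was lower at an unadjusted p under 0.05. Without KO FB1 replicate 1 or without KO FB1 replicate 2 the count of 4 fell to 2. The FB1 effects in both genotypes are drawn side by side in the plot of FB1 effects.

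**Figure D1:**
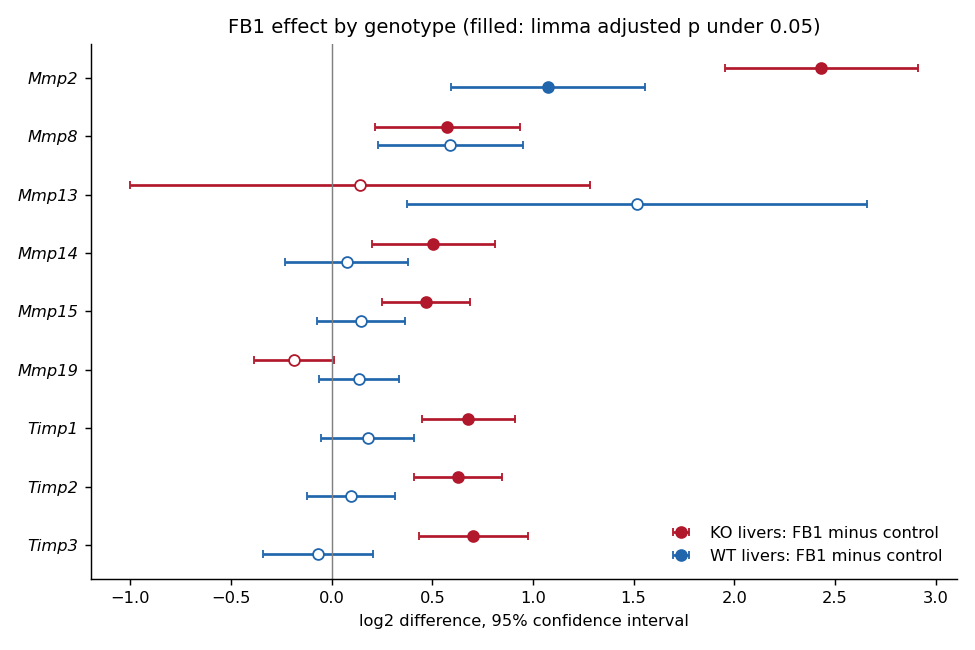
Log2 difference between FB1 and control livers for the 9 tested genes, KO livers (red, upper point of each pair) and WT livers (blue, lower point), with 95% confidence intervals from limma and 6 arrays per group. Filled points have an adjusted p under 0.05: there are 7 in KO livers and 1, Mmp2, in WT livers.

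Between the genotypes without FB1, Mmp13 and Timp1 were higher in KO livers and limma called 0 of the 9 genes lower, or 1 at an unadjusted p under 0.05. Of all genes 15.2% were called, 7.21% higher and 8.02% lower. Both genes also had non-overlapping groups, which 3.61% of all genes had in this direction and 4.32% in the other. With FB1, 6 of the 9 genes were higher in KO livers (Mmp2, Mmp13, Mmp15, Timp1, Timp2 and Timp3) and 1, Mmp19, was lower. Of all genes 32.8% were called, 14.5% higher and 18.3% lower. The median difference of the 9 genes was 0.42 with FB1 and 0.10 on water, against -0.030 and 0.014 over all genes. Groups did not overlap for 3 of the higher genes (Mmp13, Timp1 and Timp3), against 7.06% of all genes, and for Mmp19 among lower genes, against 8.13%. Mmp13 passed the signal filter through the KO groups in which it is high, so its presence among the 9 is not independent of these differences. The other 8 genes were well above background on all 24 arrays.

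**Figure D2:**
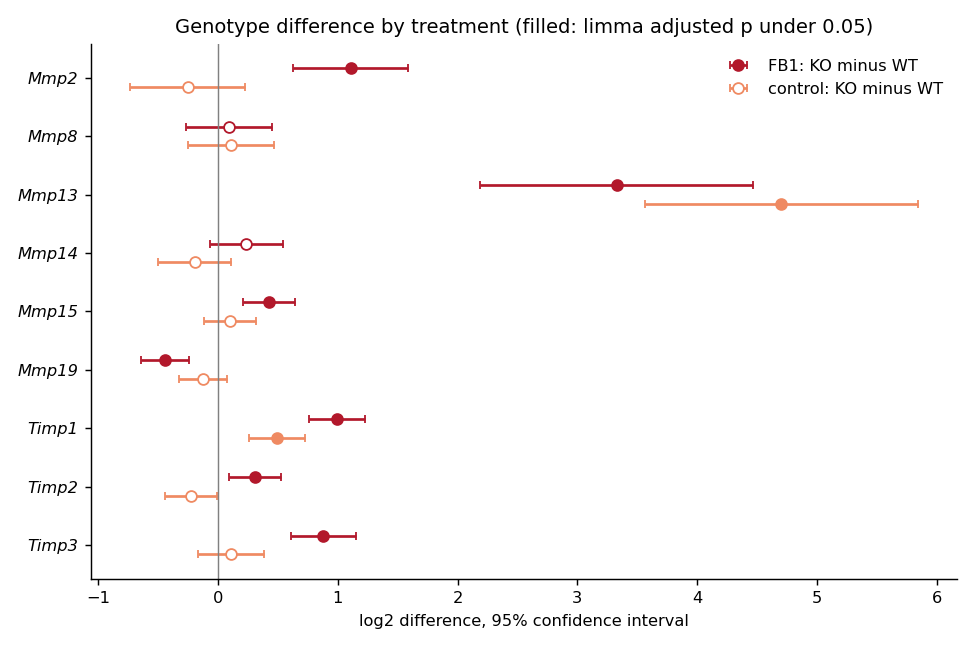
Log2 difference between KO and WT livers for the 9 tested genes, with FB1 (red, upper point) and on water (orange, lower point), with 95% confidence intervals from limma and 6 arrays per group. Filled points have an adjusted p under 0.05. Mmp13 stands far to the right under both conditions, at 3.33 with FB1 and 4.70 on water, and Mmp19 is the only filled point left of 0.

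The promoters of Mmp13 and Timp1 are printed because these were the 2 genes higher in KO livers on water. Each window runs from 250 bases before to 50 bases after the annotated start, from RefSeq (GRCm38.p6, plus strand), and 7 of the 10 genes had a window. Capitals mark the searched AP-1 motif TGANTCA and ETS motif GGAAGT. The Mmp13 window is chr9:7272264-7272563 and the Timp1 window is chrX:20869916-20870215.
Mmp13: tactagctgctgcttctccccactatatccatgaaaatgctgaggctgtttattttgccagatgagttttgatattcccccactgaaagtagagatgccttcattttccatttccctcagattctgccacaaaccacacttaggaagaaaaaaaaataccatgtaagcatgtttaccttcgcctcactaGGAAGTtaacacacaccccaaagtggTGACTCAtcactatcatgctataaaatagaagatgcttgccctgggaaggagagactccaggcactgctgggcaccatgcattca
Timp1: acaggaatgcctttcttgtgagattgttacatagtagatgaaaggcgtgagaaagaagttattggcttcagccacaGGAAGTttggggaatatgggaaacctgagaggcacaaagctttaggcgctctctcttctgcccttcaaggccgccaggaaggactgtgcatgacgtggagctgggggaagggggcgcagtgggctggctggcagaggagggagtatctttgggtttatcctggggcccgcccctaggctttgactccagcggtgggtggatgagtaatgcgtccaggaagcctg
In the Mmp13 window TGACTCA begins 35 bases before the start, on both strands at once, and GGAAGT begins 61 bases before it. The Timp1 window holds GGAAGT 174 bases before the start. Both strands were searched and the motifs did not overlap. The AP-1 motif was in 1 of the 7 windows, where 7.81% of 32851 promoter windows hold it. The ETS motif was in 3 of 7, Mmp8 being the other gene, where 23.8% of all windows hold it. The consensus LXR element DR4, the hexamer AGGTCA repeated after 4 free bases, was in 0 of the 7 windows and in 0.0152% of all windows. Its variant with AGTTCA as the later hexamer was in 0 windows of the table. These are matches of letters in these windows only.

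Mmp2 encodes gelatinase A, which cuts denatured collagen and basement membrane collagen. Its probe lay on chromosome 8 at 95376840 to 95376899 in the mm9 build used by the array design, as do all probe positions below. The level in KO FB1 livers ran from -2.69 to -1.61 (median -2.21), against -5.00 to -3.97 (median -4.73) in KO control livers. In WT FB1 livers it ran from -3.82 to -2.54 (median -3.30), against -4.92 to -3.70 (median -4.31) in WT control livers. All KO FB1 arrays stood above all control arrays of either genotype, while the WT groups overlapped through WT FB1 replicates 2 and 5 and WT control replicate 5. FB1 raised Mmp2 by 2.43 ± 0.23 in KO livers (5.40-fold, adjusted p = 1.04e-07) and by 1.07 ± 0.23 in WT livers (2.11-fold, adjusted p = 0.00969). The rise was larger in KO livers by 1.36 ± 0.33 (adjusted p = 0.0121). On the 3 slides taken alone this difference of effects was between 0.69 and 2.40. The size of these values depended on the handling of background: with normexp correction the rise was 1.09 in KO livers and 0.45 in WT livers, and with the authors' deposited values 1.43 and 0.56, with the difference of effects at 0.64 and 0.87. Each of these stayed past the threshold (adjusted p up to 0.0349). With FB1 the level was 2.15-fold higher in KO than in WT livers (1.11 ± 0.23, adjusted p = 0.000735), though the lowest KO array, replicate 4, lay below the highest WT array, replicate 1. With normexp correction the difference was 0.57 (adjusted p = 0.000442) and with the authors' deposited values 0.77 (adjusted p = 0.000161). On water KO and WT did not differ past the threshold (-0.25 ± 0.23, adjusted p = 0.544, 95% interval -0.73 to 0.23). The order of group means was thus KO FB1, WT FB1, WT control and KO control, and the last 2 did not differ beyond their spread.

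Mmp9, gelatinase B of neutrophils and macrophages, had 2 probes on chromosome 2, at 164780620 to 164780679 and between 164779091 and 164780300. The first was well above background on 1 of 24 arrays, in a WT control liver. The second was so on 3 KO FB1, 1 KO control, 4 WT FB1 and 3 WT control arrays, so that no group was measured throughout. Its level ran from -6.75 to -4.93 in KO FB1, -7.56 to -5.18 in KO control, -5.56 to -4.59 in WT FB1 and -6.84 to -5.03 in WT control livers, and all groups overlapped. With the signal filter removed, the second probe differed by 0.73 ± 0.39 for FB1 in KO livers (adjusted p = 0.213) and by 0.54 ± 0.39 for FB1 in WT livers (adjusted p = 0.564), and KO and WT by -0.57 ± 0.39 with FB1 (adjusted p = 0.369) and -0.76 ± 0.39 on water (adjusted p = 0.328). With most arrays at the detection limit, no fold is given for Mmp9.

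**Figure D3:**
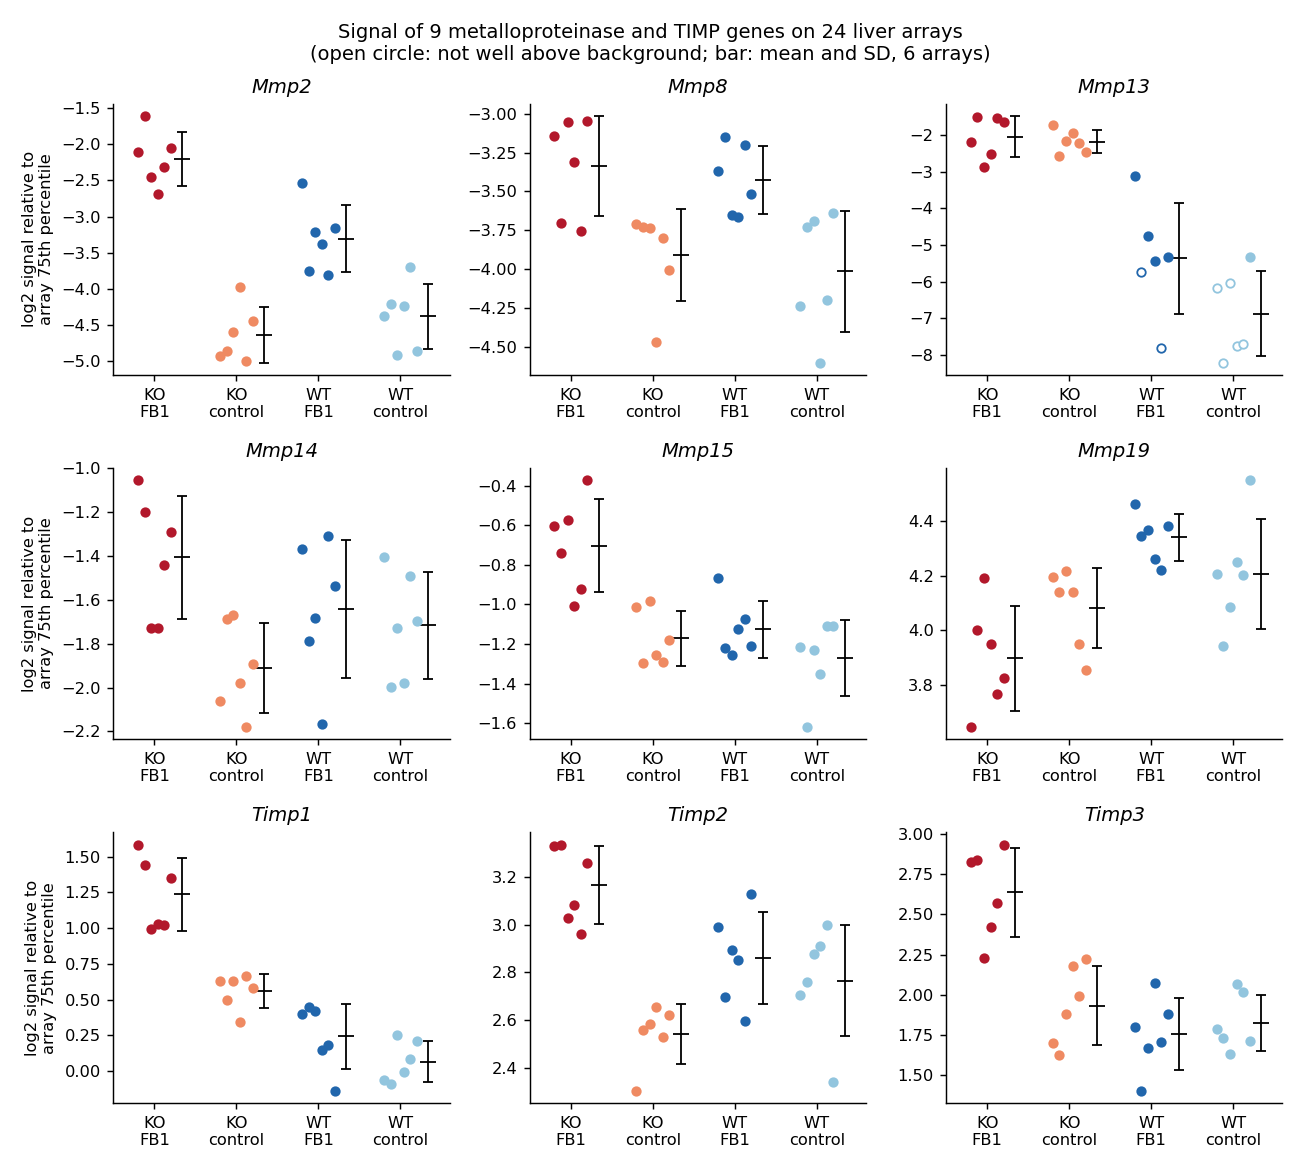
Level of each tested gene on every array, as log2 signal relative to the 75th percentile of the array, for KO FB1, KO control, WT FB1 and WT control livers. Points are arrays, open where the probe was not well above background, and bars give the mean and SD of 6 arrays. Mmp2 and the 3 Timp genes stand highest in KO FB1 livers, and Mmp13 separates the genotypes.

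Mmp13, collagenase-3, is a main collagenase of rodents for fibrillar collagen and is known from macrophages in resolving liver scars. Its probe lay on chromosome 9 at 7282762 to 7282821. The level in KO FB1 livers ran from -2.85 to -1.51 (median -1.91), against -2.57 to -1.73 (median -2.18) in KO control livers. WT FB1 livers held -7.81 to -3.12 (median -5.38), against -8.22 to -5.34 (median -6.94) in WT control livers. It was well above background on 6, 6, 4 and 1 arrays of KO FB1, KO control, WT FB1 and WT control. Every KO array lay above every WT array. On water KO livers held 4.70 ± 0.55 more than WT livers (26.1-fold, adjusted p = 1.02e-06), and with FB1 3.33 ± 0.55 more (10.0-fold, adjusted p = 5.94e-05). With the dim WT arrays raised to the detection floor these became 3.57 (11.9-fold) on water and 2.96 (7.80-fold) with FB1. With normexp correction they were 1.57 on water and 1.335 with FB1, and with the authors' deposited values 2.27 and 1.82, all past the threshold (adjusted p up to 4.47e-07). FB1 made a difference of 0.14 ± 0.55 in KO livers (adjusted p = 0.862), with an upper 95% bound of 1.28. In WT livers the difference was 1.52 ± 0.55 and missed the threshold (adjusted p = 0.142), or 0.75 at the floor. With normexp correction it was 0.36 (adjusted p = 0.236) and with the authors' deposited values 0.49 (adjusted p = 0.24). Single arrays moved the value of 1.52 in both directions. Without WT FB1 replicate 5, at -7.81, the difference was 2.01 (adjusted p = 0.024), and without WT FB1 replicate 1, at -3.12, it was 1.07 (adjusted p = 0.327). The difference of the FB1 effects was -1.38 ± 0.78 (adjusted p = 0.287).

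Mmp8, the collagenase stored in neutrophil granules, was read on chromosome 9 at 7567968 to 7568026. Its level ran from -3.76 to -3.04 (median -3.23) in KO FB1 livers, against -4.47 to -3.71 (median -3.77) in KO control livers. WT FB1 livers held -3.67 to -3.15 (median -3.44), against -4.60 to -3.64 (median -3.96) in WT control livers. In both genotypes FB1 arrays lay mostly above control arrays with a slight overlap. FB1 raised Mmp8 by 0.57 ± 0.17 in KO livers (1.49-fold, adjusted p = 0.0111), with values of 0.040, 0.68 and 1.01 on slides 1, 2 and 3. The rise was 0.25 with normexp correction (adjusted p = 0.0311) and 0.29 with the authors' deposited values (adjusted p = 0.0396). The difference in WT livers was of like size, 0.59 ± 0.17, but was not called (adjusted p = 0.0696). It was called without WT control replicate 6 (0.66, adjusted p = 0.0435), and on leaving out other single arrays the adjusted p reached 0.166. With normexp correction the WT difference was 0.27 (adjusted p = 0.108) and with the authors' deposited values 0.27 (adjusted p = 0.226). The difference of the FB1 effects was -0.015 ± 0.25 (adjusted p = 0.978, 95% interval -0.52 to 0.49), and its sign turned with the authors' deposited values (0.020) and on leaving out any of 11 arrays. KO and WT differed by 0.092 ± 0.17 with FB1 (adjusted p = 0.727) and by 0.11 ± 0.17 on water (adjusted p = 0.763).

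Mmp14 and Mmp15 encode proteases anchored in the cell membrane, and MMP14 activates the MMP2 precursor. Mmp14, read on chromosome 14 at 55058775 to 55058834, ran from -1.73 to -1.06 (median -1.36) in KO FB1 livers, against -2.18 to -1.67 (median -1.93) in KO control livers. The range was -2.17 to -1.31 (median -1.61) in WT FB1 livers, against -1.998 to -1.41 (median -1.71) in WT control livers. The WT groups overlapped widely, and in KO livers FB1 replicates 3 and 4 fell within the control range. FB1 raised Mmp14 1.42-fold in KO livers (0.50 ± 0.15, adjusted p = 0.00884), and in WT livers the difference was 0.075 ± 0.15 (adjusted p = 0.831). The difference of these effects, 0.43 ± 0.21, was not called (adjusted p = 0.206), nor was KO against WT with FB1 (0.24 ± 0.15, adjusted p = 0.233) or on water (-0.19 ± 0.15, adjusted p = 0.442).

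Mmp15, read on chromosome 8 at 97897703 to 97897762, ran from -1.01 to -0.37 (median -0.67) in KO FB1 livers, against -1.30 to -0.98 (median -1.22) in KO control livers. WT FB1 livers held -1.26 to -0.87 (median -1.17), against -1.62 to -1.11 (median -1.22) in WT control livers. Most KO FB1 arrays stood above the other groups, with replicate 4 reaching down into the KO control range and WT FB1 replicate 1 above the 2 lowest KO FB1 arrays. FB1 raised Mmp15 1.38-fold in KO livers (0.47 ± 0.11, adjusted p = 0.00116), and the difference in WT livers was 0.15 ± 0.11 (adjusted p = 0.483). With FB1 KO livers held 1.34-fold more than WT livers (0.42 ± 0.11, adjusted p = 0.00341), while on water the difference was 0.10 ± 0.11 (adjusted p = 0.601). The difference of the FB1 effects was not called (0.32 ± 0.15, adjusted p = 0.182).

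Mmp19, a secreted metalloproteinase with a broad range of basement membrane substrates, was the 1 gene called lower in KO livers. Its brighter probe, on chromosome 10 at 128237761 to 128237820, ran from 3.65 to 4.19 (median 3.89) in KO FB1 livers, against 3.85 to 4.22 (median 4.14) in KO control livers. In WT FB1 livers it ran from 4.22 to 4.46 (median 4.36), against 3.94 to 4.55 (median 4.20) in WT control livers. Every array of both KO groups lay below every WT FB1 array, narrowly so for KO control, and FB1 and control groups of 1 genotype overlapped. With FB1 the level in KO livers was 1.36-fold lower than in WT livers (-0.44 ± 0.096, adjusted p = 0.000992). The other probe, at 128235282 to 128235341, gave -0.28 ± 0.10 (adjusted p = 0.0429 over all probes), with overlapping groups. Neither FB1 effect was called, at -0.19 ± 0.096 in KO livers (adjusted p = 0.125) and 0.13 ± 0.096 in WT livers (adjusted p = 0.483). Without KO FB1 replicate 3, the highest of its group, the fall in KO livers was called (-0.24, adjusted p = 0.0377). KO and WT differed by -0.12 ± 0.096 on water (adjusted p = 0.453), and the difference of the FB1 effects was -0.32 ± 0.14 (adjusted p = 0.141).

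Timp1, an inhibitor of most metalloproteinases and a secreted protein long used as a marker of liver fibrosis, was read on the X chromosome at 20451675 to 20451733. Its level ran from 0.99 to 1.58 (median 1.19) in KO FB1 livers, against 0.35 to 0.67 (median 0.60) in KO control livers. In WT FB1 livers it ran from -0.14 to 0.45 (median 0.29), against -0.093 to 0.25 (median 0.040) in WT control livers. KO FB1 arrays stood clear of all other arrays, KO control arrays stood clear of WT control arrays, and the WT groups overlapped. Timp1, like Mmp13, separated the genotypes both with FB1 (1.99-fold, 0.99 ± 0.11, adjusted p = 3.28e-07) and on water (1.41-fold, 0.49 ± 0.11, adjusted p = 0.00321). FB1 raised it 1.60-fold in KO livers (0.68 ± 0.11, adjusted p = 5.42e-05), and in WT livers the difference was 0.18 ± 0.11 (adjusted p = 0.418). The FB1 effects differed by 0.50 ± 0.16 (adjusted p = 0.0473), a call at the edge of the threshold. It was lost with slide as a block (adjusted p = 0.0572), with no filter on dim probes (adjusted p = 0.0951) and on leaving out any of 15 of the 24 arrays (adjusted p up to 0.0885), which were KO FB1 replicates 1, 2 and 6, all 6 KO control arrays, WT FB1 replicates 4, 5 and 6, and WT control replicates 3, 5 and 6. On slides 1, 2 and 3 it was 0.28, 0.11 and 1.12.

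Timp2, the inhibitor that also bridges MMP14 and the MMP2 precursor, had 2 tested probes on chromosome 11. The brighter, at 118163146 to 118163205, ran from 2.96 to 3.34 (median 3.17) in KO FB1 livers, against 2.30 to 2.65 (median 2.57) in KO control livers. The range was 2.59 to 3.13 (median 2.87) in WT FB1 livers, against 2.34 to 2.997 (median 2.82) in WT control livers. KO FB1 arrays lay above all KO control arrays, while both WT groups overlapped with each other and with both KO groups. FB1 raised Timp2 1.54-fold in KO livers (0.63 ± 0.11, adjusted p = 7.35e-05), between 0.59 and 0.69 on the 3 slides. In WT livers the difference was 0.094 ± 0.11 (adjusted p = 0.677, 95% interval -0.12 to 0.31). The effects differed by 0.53 ± 0.15 (adjusted p = 0.0273), a call lost without KO FB1 replicate 1 (0.50, adjusted p = 0.0527) or 2 (0.50, adjusted p = 0.051) and with no filter on dim probes (adjusted p = 0.0582).

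With FB1 Timp2 was 1.24-fold higher in KO than in WT livers (0.31 ± 0.11, adjusted p = 0.029), and on water the difference was -0.22 ± 0.11 (adjusted p = 0.174). The first call was lost without KO FB1 replicate 1, 2 or 6 or WT FB1 replicate 2 or 5, with differences of 0.27, 0.27, 0.29, 0.27 and 0.25 and adjusted p between 0.0604 and 0.0763, and with no filter on dim probes (adjusted p = 0.0552). With the mean of both probes it was 0.48 (adjusted p = 0.00168). On water the lower level in KO livers was called without WT control replicate 6, the lowest WT array (-0.31, adjusted p = 0.0332). The other Timp2 probe, whose target spans 118171964 to 118178741, gave a rise with FB1 in KO livers of 0.78 ± 0.14 (adjusted p = 0.000165 over all probes) and a level 0.66 ± 0.14 higher in KO than in WT livers with FB1 (adjusted p = 0.000924). Its difference of effects was 0.71 ± 0.20 (adjusted p = 0.0299). The 2 probes therefore had the same direction in these 3 comparisons, with larger values at the dimmer probe. On water the dimmer probe gave a smaller difference between KO and WT livers, -0.048 ± 0.14 (adjusted p = 0.881 over all probes).

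Timp3, which stays bound to the matrix and also inhibits ADAM proteases, had 2 tested probes on chromosome 10. The brighter, at 85812041 to 85812100, ran from 2.23 to 2.93 (median 2.70) in KO FB1 livers, against 1.63 to 2.22 (median 1.94) in KO control livers. In WT FB1 livers it ran from 1.40 to 2.08 (median 1.76), against 1.63 to 2.07 (median 1.76) in WT control livers. All 6 KO FB1 arrays lay above the 18 others, narrowly so at the edge of KO control, and the other groups overlapped. FB1 raised Timp3 1.63-fold in KO livers (0.70 ± 0.13, adjusted p = 0.000206), while in WT livers the difference was -0.068 ± 0.13 (adjusted p = 0.826, 95% interval -0.34 to 0.20). The effects differed by 0.77 ± 0.19 (adjusted p = 0.0121), between 0.61 and 0.95 on the 3 slides, and the call held on leaving out any single array. With FB1 KO livers held 1.84-fold more than WT livers (0.88 ± 0.13, adjusted p = 1.71e-05), and on water the difference was 0.11 ± 0.13 (adjusted p = 0.669). The second probe, at 85811696 to 85811755, gave 0.74 ± 0.15 for FB1 in KO livers (adjusted p = 0.000584 over all probes) and a difference of effects of 0.85 ± 0.22 (adjusted p = 0.019). The remaining probe, at 85769407 to 85769466 and annotated to another transcript, was well above background on 1 array and was not tested.

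Within groups, Mmp2, Timp2 and Timp3 varied together from mouse to mouse. After each group's mean was subtracted, Pearson's r over the 24 arrays was 0.69 between Mmp2 and Timp2 (Spearman's rho 0.74), 0.63 between Mmp2 and Timp3 (rho 0.64) and 0.58 between Timp2 and Timp3 (rho 0.59). These were the 3 values above 0.5 among the 36 pairs of the 9 genes, whose median was 0.15. Without the 2 arrays farthest from the median of the first gene they were 0.65, 0.66 and 0.65. Within slides 1, 2 and 3 the first pair gave 0.87, 0.58 and 0.70 over 8 arrays each. Mmp8 ran opposite to Mmp2 (r -0.55, rho -0.48) and to Timp3 (r -0.54, rho -0.53), and without the 2 farthest arrays these were -0.63 and -0.45. Values of 1 array share its RNA extract, labelling and scaling, and these pairs were singled out after their values were seen.

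**Figure D4:**
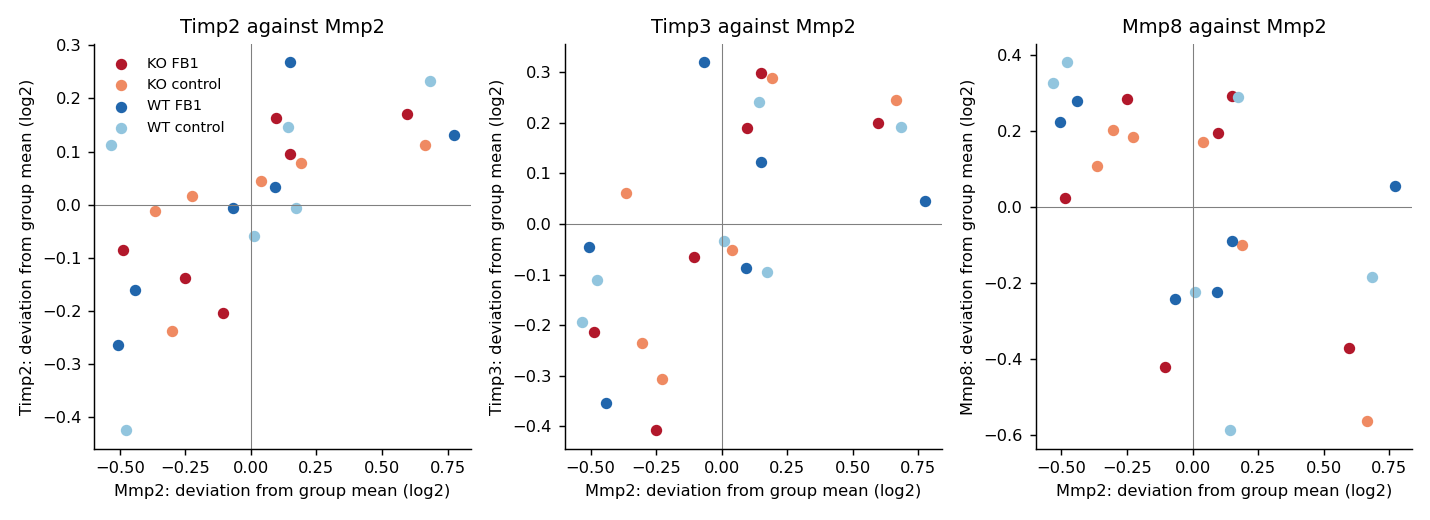
Deviation of each array from its group mean in log2 units, for Timp2 against Mmp2 (left), Timp3 against Mmp2 (middle) and Mmp8 against Mmp2 (right). Each point is 1 of the 24 arrays, coloured by group. The left and middle clouds slope upward (r 0.69 and 0.63) and the right one downward (r -0.55).

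Over the raw levels of the 24 arrays, the tested genes most like Mmp2 were Loxl1 (r 0.97), Aebp1 (r 0.96) and Loxl2 (r 0.95), and those most like Timp3 were Rftn1 (r 0.92), Fbn1 (r 0.91) and Mgp (r 0.91). Timp2 was nearest to Tgfb3 (r 0.91), Myo1c (r 0.87) and Cdh3 (r 0.87). Timp1 was nearest to Nudt18 (r 0.97), Tnfaip3 (r 0.95) and Tlr2 (r 0.94). Mmp13 was nearest to the chemokine receptor gene Cx3cr1 (r 0.93), to a transcript listed as ENSMUST00000180541 (r 0.92) and to Hpgds (r 0.92). For Mmp8, Mmp14, Mmp15 and Mmp19 the nearest genes were 2810408I11Rik (r 0.82), Bak1 (r 0.84), Pacs2 (r 0.89) and Habp2 (r 0.84). These correlations include the differences between groups that the genes share.

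Other metalloproteinase genes of the array moved in part with those above. Of 16 such genes 7 were tested. FB1 raised 5 of the 7 and lowered 1 in KO livers (median difference 0.67), and raised 2 in WT livers (median 0.50). Over all tested genes 16.5% rose and 24.6% fell in KO livers, and 2.06% rose in WT livers. Mmp12, the macrophage elastase, was higher in KO than in WT livers on water (3.08 ± 0.38, adjusted p = 2.19e-06; 2.44 with dim arrays at the floor, as 1 WT control array was above background) and with FB1 (3.06 ± 0.38, adjusted p = 1.48e-06). Its rise with FB1 was 2.58 ± 0.38 in KO livers (adjusted p = 1.63e-05) and 2.60 ± 0.38 in WT livers (adjusted p = 0.000613), where it was 1.96 with dim WT control arrays at the floor. Mmp23 rose by 1.67 ± 0.15 in KO livers (adjusted p = 6.23e-08) and by 0.78 ± 0.15 in WT livers (adjusted p = 0.0044), with a called difference of 0.88 ± 0.22 (adjusted p = 0.0135). Mmp11, stromelysin-3, rose in KO livers (0.67 ± 0.15, adjusted p = 0.00117). Mmp7, matrilysin, was higher in KO livers on water (2.03 ± 0.49, adjusted p = 0.00542; 1.04 at the floor) and with FB1 (2.01 ± 0.49, adjusted p = 0.00283; 1.39 at the floor), with 1 array above background in each WT group. Mmp7 passed the signal filter through KO FB1 livers alone, where it is high, so its being among the 7 is not independent of these differences. Of 9 tested genes for other inhibitors and related proteins, FB1 raised 1 and lowered 2 in KO livers (median -0.057), near the shares over all tested genes. In WT livers limma called 0 (median 0.069), and 1 was higher at an unadjusted p under 0.05.

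Among those inhibitor genes, Tfpi2, a Kunitz inhibitor, fell by 0.67 ± 0.13 with FB1 in KO livers (adjusted p = 0.000243), and Reck, a membrane-anchored inhibitor, was lower in KO than in WT livers with FB1 (-0.53 ± 0.14, adjusted p = 0.00697). The 1 that rose was Pcolce (0.57 ± 0.11, adjusted p = 0.000316), which is known as an enhancer of procollagen processing. The related Pcolce2 was not well above background on any KO array and was well above it on all WT arrays, through which it passed the filter. It was at least 35.0-fold lower in KO livers with FB1 (adjusted p = 6.58e-13) and at least 29.6-fold lower on water (adjusted p = 9.92e-13). Timp4 was not tested.

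The matrix genes that these enzymes cut and the genes that activate them were counted in the same way. Of 22 matrix substrate genes, FB1 raised 18 and lowered 1 in KO livers (median 0.87) and raised 6 in WT livers (median 0.20), and the effect was larger in KO livers for 8. Over all tested genes 16.5% rose and 24.6% fell in KO livers, and 2.06% rose and 0.824% fell in WT livers. The difference of effects was called with the higher value in KO for 4.46%. Nidogen Nid1 rose by 1.75 ± 0.18 and the collagen chain Col1a2 by 1.68 ± 0.17 in KO livers (adjusted p = 2.35e-07 and 2.49e-07). Col1a1 rose by 1.53 ± 0.32 in WT livers (adjusted p = 0.00698). Of 26 ADAM and ADAMTS genes, 14 rose and 2 fell in KO livers (median 0.46) and 2 rose in WT livers (median 0.064). Adam8, a leukocyte sheddase, rose by 2.34 ± 0.27 in KO livers (adjusted p = 9.49e-07) and by 1.15 ± 0.27 in WT livers (adjusted p = 0.0186).

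The plasminogen system and other activators were split. Of 17 genes 6 rose and 7 fell with FB1 in KO livers (median -0.053), against 16.5% and 24.6% of all tested genes. In WT livers limma called 0 (median 0.0089), with 4 higher and 1 lower at an unadjusted p under 0.05, and Pcsk5 had the smallest adjusted p (0.112). Plat, which converts plasminogen to plasmin, rose by 2.73 ± 0.33 in KO livers (adjusted p = 1.38e-06), and Serpine2, a plasminogen activator inhibitor, by 2.48 ± 0.20 (adjusted p = 2.25e-08). Plat was well above background on 6, 5, 4 and 2 arrays of KO FB1, KO control, WT FB1 and WT control, and so was tested only through the group in which it is high. Both rises were larger in KO livers, by 2.02 ± 0.46 for Plat (adjusted p = 0.00876) and 1.94 ± 0.29 for Serpine2 (adjusted p = 0.000466). On water, Plau, the urokinase gene, was higher in KO livers (0.98 ± 0.25, adjusted p = 0.00942). Among 14 cell surface partners 3 rose and 4 fell with FB1 in KO livers (median -0.029), near the shares over all tested genes. In WT livers 1 rose (median 0.091), against 2.06% of all tested genes. Cd63, whose product binds TIMP1, was called in every comparison. It rose by 1.72 ± 0.14 with FB1 in KO livers (adjusted p = 2.85e-08) and by 0.54 ± 0.14 in WT livers (adjusted p = 0.0423), and it was higher in KO than in WT livers by 1.996 ± 0.14 with FB1 (adjusted p = 2.6e-10) and by 0.81 ± 0.14 on water (adjusted p = 0.000241).

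**Figure D5:**
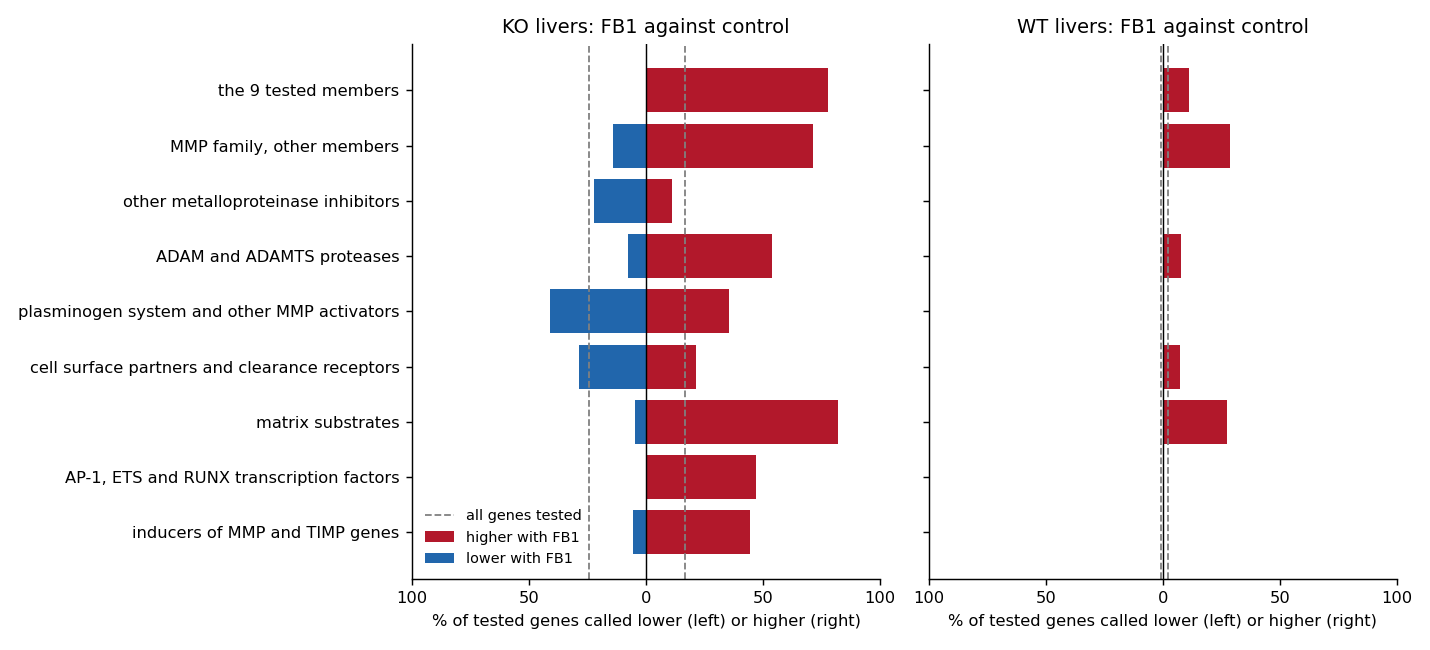
Share of the tested genes of each list called higher (red, right of 0) or lower (blue, left of 0) with FB1 in KO livers (left panel) and WT livers (right panel), in percent of the list. Dashed lines mark the shares over all 22088 tested genes, 16.5% higher and 24.6% lower in KO livers and 2.06% and 0.824% in WT livers. The metalloproteinase and TIMP genes (7 of 9 higher) and the matrix substrates (18 of 22) extend far to the right in KO livers.

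Factors that bind AP-1, ETS and RUNX sites and known inducers of these genes were also examined. The shares over all tested genes were 16.5% higher and 24.6% lower with FB1 in KO livers. Of 17 transcription factor genes FB1 raised 8 and lowered 0 in KO livers (median 0.37), with 1 lower at an unadjusted p under 0.05. In WT livers limma called 0, also at an unadjusted p under 0.05 (median 0.037). Jund rose by 0.87 ± 0.13 (adjusted p = 2.37e-05), Ets2 by 0.89 ± 0.14 (adjusted p = 3.46e-05) and Elf3 by 2.85 ± 0.47 (adjusted p = 5.82e-05; 2.75 at the floor) in KO livers. Elf3 was well above background on 6, 4, 3 and 2 arrays of KO FB1, KO control, WT FB1 and WT control, and so was tested only through the group in which it is high. On water 3 were higher in KO livers, namely Ets1 (0.73 ± 0.10, adjusted p = 9.2e-06), Junb (0.64 ± 0.21, adjusted p = 0.0379) and Runx1 (0.45 ± 0.15, adjusted p = 0.0391). Of all tested genes 7.21% were higher there and 8.02% lower. Of 18 inducer genes 8 rose and 1 fell with FB1 in KO livers (median 0.34). In WT livers limma called 0 (median 0.12), and 3 were higher at an unadjusted p under 0.05. Tgfb3 rose by 1.59 ± 0.18 in KO livers (adjusted p = 6.5e-07), where the effect was larger than in WT livers by 1.71 ± 0.25 (adjusted p = 0.000455), and on water it was lower in KO livers (-0.77 ± 0.18, adjusted p = 0.00394). Tnf (0.69 ± 0.18, adjusted p = 0.00937) and Osm (1.03 ± 0.26, adjusted p = 0.00752; 0.53 at the floor) were higher in KO livers on water, and Osm too passed the filter through KO FB1 livers alone.

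Markers of the cell types that make these proteins moved with several of the groups. Summed signals below add linear values, so the brightest markers of a list weigh most. Of all tested genes, 16.5% rose and 24.6% fell with FB1 in KO livers. For stellate cells, 7 of 15 markers rose and 0 fell with FB1 in KO livers, and their summed signal lay between 6.48 and 6.84 in KO FB1, 5.85 and 6.36 in KO control, 6.21 and 6.66 in WT FB1 and 5.89 and 6.25 in WT control livers, in log2 relative to the array's 75th percentile. Among 14 markers of recruited macrophages 11 were raised and 1 was lowered, and the sums were 6.96 to 7.27, 5.60 to 6.17, 6.17 to 6.73 and 6.01 to 6.89 in the same order of groups. Of these, Gpnmb was dim on all WT control arrays. Stellate and macrophage sums in KO FB1 livers thus stood above those in KO control livers without overlap, beside the rises of Mmp2, Timp1, Timp2 and Timp3, and the part of these cells in those rises was not tested. Lyz2, with means of 6.34 in KO FB1 and 5.06 in KO control livers, made up a large part of the macrophage sum. On water 6 of the 14 macrophage markers were higher and 5 lower in KO livers, against 7.21% and 8.02% of all tested genes. The macrophage sum had a median of 5.99 in KO control and 6.49 in WT control livers, and the groups overlapped. Within this split list Cx3cr1 was higher in KO livers on water by 3.50 ± 0.29 (adjusted p = 3.72e-09), beside the higher Mmp13. The part of macrophages in the Mmp13 difference was not tested.

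Of 13 Kupffer cell markers, 10 were lower in KO than in WT livers on water and 9 with FB1, and limma called 0 higher, also at an unadjusted p under 0.05, with sums of 5.90 to 6.55 in KO FB1, 5.76 to 6.34 in KO control, 7.36 to 7.86 in WT FB1 and 6.66 to 7.98 in WT control livers. With FB1 in KO livers this list was split, with 3 markers higher and 2 lower, against 16.5% and 24.6% of all tested genes. Neutrophil markers, beside Mmp8 and Mmp9, had 1 rise and 1 fall among 12 with FB1 in KO livers (median difference 0.81) and 1 rise in WT livers (median 1.40). At an unadjusted p under 0.05, 2 were higher and 1 lower in KO livers, and 8 higher and 0 lower in WT livers. After adjustment, 8 of the 12 were lower in KO than in WT livers with FB1 and 3 on water. Of all tested genes 18.3% were lower in KO livers with FB1 and 8.02% on water. The median difference of the neutrophil list between the genotypes with FB1 was -1.61. The neutrophil sums were 6.73 to 6.96, 6.75 to 6.89, 6.85 to 7.24 and 6.76 to 7.02 in the same order. Weighted to the brightest markers, these overlapping sums do not give the level of the list as a whole. With FB1 in KO livers hepatocyte markers fell in 6 of 11 cases and sinusoidal endothelium markers in 6 of 12, with limma calling 0 higher in either list, also at an unadjusted p under 0.05. What part these cells had in the 10 genes' differences was not tested. With FB1 in KO livers 4 of 11 portal fibroblast and mesothelial markers, 1 of 8 cholangiocyte, 1 of 8 T and NK cell and 5 of 6 B and plasma cell markers rose and 0 fell, smooth muscle markers had 1 rise and 1 fall among 5, and 2 of 8 erythroid and 2 of 4 pancreas and adipose markers fell. Of all tested genes 16.5% rose and 24.6% fell. The rises of cholangiocyte, T and NK cell and smooth muscle markers and the falls of smooth muscle and erythroid markers lay near these shares.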

How the data were processed

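Total liver RNA was labelled with Cy3 and hybridised to 1-colour Agilent arrays, per the labels. The scanner files hold spot intensity values from Agilent Feature Extraction 10.10.1.1, per the file headers, background-subtracted and not normalised between arrays. The authors also deposited a table of log2 values, used as an alternative; the submitters' processing notes name limma. Genes outside the RefSeq table (GRCm38.p6) kept the file's name.

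Here the processed signal was taken as log2 minus each array's 75th percentile. Spots marked as outliers (64 to 121 of 59305 per array) were set to missing, and replicate spots were averaged. Probes entered the test if well above background on every array of at least 1 group, with at least 4 values per group (33417 of 56605 probes). Each gene was represented by the brightest of its tested probes; other probes of the 10 genes were tested over all probes. Group means of all 24 arrays were fitted with limma 3.58.1 (R 4.3.3), without covariates, and adjusted over 22088 genes. The fit was tested on simulated data. At the floor means that dim arrays were raised to the lowest signal well above background. A fold against a group dim throughout is a lower bound built the same way. No pair of arrays held identical values. Arrays with the same replicate number did not deviate together, so none were paired.

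The 10 genes, the 8 lists of related genes and the 13 marker lists were chosen with earlier results of these data known. Named were all 10 genes, up to 3 called members of a list with the smallest p (or the 1 smallest), and each gene's nearest genes by Pearson's r. The names given are a selection within that rule. Alternatives were other normalisations, backgrounds, filters, blocks and variance models, the authors' values, a 1.5-fold threshold and leaving out each array. Figures used Python 3.11.15 and matplotlib 3.10.9.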

Additional observations from a re-analysis of the deposited data

Results flagged for a closer look

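Timp2 in KO control replicate 1 stood apart from its group, at 2.30 where the next array was at 2.53 and the highest at 2.65. It was the 1 array so marked among 36 combinations of gene and group, a rule that chance meets in about 1 of 20. The FB1 effect differed between genotypes by a test of the difference for 4 genes, by 1.36 for Mmp2, 0.50 for Timp1, 0.53 for Timp2 and 0.77 for Timp3, each larger in KO livers.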

How the results depend on the processing

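Quantile normalisation, normexp background correction, an intensity trend and the mean of a gene's probes changed the side of the threshold or the direction of 0 of the 45 differences (9 genes in 5 comparisons). The authors' values turned 1, the Mmp8 difference of effects (0.020). With no filter on dim probes 3 calls were lost, the differences of effects of Timp1 (adjusted p = 0.0951) and Timp2 (0.0582) and Timp2 between genotypes with FB1 (0.0552), and slide as a block lost that of Timp1. Labels number the arrays, but same-numbered arrays did not deviate together (r above 0.1 for 5 of 36 pairs, and 2 of 24 arrays closest to their own number). With the replicate block the same 3 calls were lost (adjusted p = 0.0606, 0.0553 and 0.0561), so 2 of the 4 genes with a larger rise in KO livers were left, as with no filter. At 1.5-fold or more as well, the genes higher with FB1 in KO livers numbered 4 of 7, those higher in KO livers on water 1 of 2, the lower one with FB1 0, and those with a larger rise in KO livers 2 of 4. The filter that asks for signal in all 4 groups leaves Mmp13 out, and 1 gene was then higher in KO livers on water. Over all genes the 1.5-fold threshold gave 2101 higher and 1636 lower for FB1 in KO, 44 lower for FB1 in WT, 1575 higher and 1680 lower for KO against WT with FB1, 792 higher and 1039 lower on water, and 576 lower for the difference of effects. The 182 genes lower with FB1 in WT were 99 with the authors' values, 69 with no filter and 62 with the WT groups alone. With no filter the difference of effects had 641 higher and 617 lower calls, and with the authors' values the share of higher calls was 59.0%, against 47.9%. Leaving out single arrays gave ranges of 1 to 2 genes higher and 77 to 283 of all genes lower for FB1 in WT, 0 to 1 gene lower for FB1 in KO and 0 to 1 lower between genotypes on water, 2 to 4 genes for the difference of effects and 756 to 1763 lower over all genes (the last without KO FB1 replicate 3). Signs turned for Mmp8 (difference of effects -0.13 to 0.10, genotypes on water -0.011 to 0.22) and for Timp3 with FB1 in WT (-0.13 to 0.0025). Where no value above shows otherwise, the cause was not tested. The called differences of the dim genes Mmp2, Mmp8 and Mmp13, and the FB1 differences of Mmp8 and Mmp13 in WT livers, shrank with normexp correction and the authors' values, as given beside them. Signal over background limits Mmp9 and Mmp13 in WT livers.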

Other observations

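Within groups, the genes nearest to single members differed in part from those nearest over raw levels. After group means were removed, Mmp8 varied most closely with Atp4a (r 0.85), Ccdc134 (r 0.82) and the neutrophil gene S100a9 (r 0.81) over the 24 arrays. Over raw levels Mmp8 was instead nearest to 2810408I11Rik (r 0.82), C9 (r 0.80) and Hpx (r 0.80). After the same step Timp3 varied most closely with the integrin gene Itga8 (r 0.88), Peak1 (r 0.85) and the collagen receptor gene Ddr2 (r 0.84), and Mmp2 with Aebp1 (r 0.87) and the growth factor gene Tgfb3 (r 0.85). Timp1 was nearest to the ETS factor gene Elf3 (r 0.81), and Mmp13 to Apobec1 (r 0.82). Both values rest in part on dim arrays. Mmp13 was well above background on 4 WT FB1 arrays and 1 WT control array. Elf3 was so on 4 KO control, 3 WT FB1 and 2 WT control arrays.

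KO FB1 livers were uneven from array to array. Each slide held 2 such arrays beside 2 of each other group, and the part of slides in this unevenness was not tested. On slide 3 replicates 1 and 6 lay above the group mean for 7 and 8 of the 9 tested genes, with median deviations of 0.16 and 0.15. On slide 2 replicates 3 and 4 did so for 3 and 2 genes, with medians of -0.24 and -0.21. On slide 1 replicates 2 and 5 did so for 7 genes and 1 gene. Among WT FB1 livers replicate 1, on slide 2, lay above its group mean for all 9 genes (median 0.16).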
